A study of Mus musculus with 12 samples.

Results

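The AP-1 and EGR immediate early factors are transcription factors whose genes respond within minutes to serum and growth factors. The 10 genes described here, Fos, Fosb, Fosl1, Fosl2, Jun, Junb, Atf3, Egr1, Egr2 and Egr3, were taken by gene symbol from 19937 genes with a probe set of a single symbol. Each of the 10 had exactly 1 such probe set among the 34760 of the array, so none was left out and no choice between probe sets was needed.

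Expression was measured on Affymetrix Mouse Gene 1.0 ST arrays in 4 stably modified lines of mouse 4T1 mammary carcinoma cells (BALB/cfC3H background), with 3 arrays per line. The lines are labelled 4T1-control, 4T1-FL, 4T1-mutB1 and 4T1-ΔSAP. The names are read here as an unaltered (FL), a B1-altered (mutB1) and a SAP-deleted (ΔSAP) form of megakaryoblastic leukemia-1 (Mkl1, now Mrtfa), the factor in the series title. All lines were kept in 0.03% FCS for 48 h before RNA was taken, so no line was compared with serum-stimulated cells. The labels name 1 line per construct, and nothing used here gives the vector, its promoter or the number of clones behind a line. A difference between constructs therefore cannot be told apart from a difference between lines, and the p-values measure only how far cultures of 1 line vary.

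Fos and Jun proteins carry a basic region and a leucine zipper and bind DNA as pairs. Jun proteins pair with themselves or with Fos proteins to form the activator AP-1, and Atf3 is a stress-induced relative that pairs with Jun proteins and often represses. Egr proteins are zinc finger factors that bind GC-rich sites and are restrained by the Nab corepressors. Many of these genes are classical targets of serum response factor (Srf), which binds a DNA element called the CArG box together with either a ternary complex factor (Elk1, Elk3 or Elk4, driven by ERK kinase) or an actin-regulated Mrtf coactivator such as Mkl1. Mkl1 contacts Srf through its basic B1 region, and its SAP domain belongs to a class of motifs thought to bind DNA.

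RefSeq promoter windows (build GRCm38.p6, 250 bases before to 50 after each annotated start) were matched by symbol for 7 of the 10 genes, Fos, Fosb, Fosl2, Jun, Junb, Atf3 and Egr2, and no window is shown for Fosl1, Egr1 and Egr3. The windows were searched on both strands for exact matches. The CArG box was taken as CC, then 6 bases that are each A or T, then GG, with no mismatch allowed. The other motifs were TGACG (the half-site of a cyclic AMP response element), TGACATCA (a variant AP-1 site), TGANTCA (the AP-1 site), GCGGGGGCG (an EGR-type site) and CGGAA (an Ets core, as bound by ternary complex factors). No searched motif contains another. Egr2 had CArG boxes in its windows, at 2 places. Its range of line means was 1.27, the widest among the 10, next to 1.25 for Atf3, whose window held no CArG box. Egr2 was searched in 5 windows, of which several overlap, and each of the other 6 genes in 1. Of 27025 genes with a window, 1.81% held a CArG box in at least 1 of theirs. The stretches around both boxes are printed 5′ to 3′ on the gene's strand with the matches in capitals, the first from chr10:67537484-67537513 and the second from chr10:67537793-67537822, both on the plus strand.
Egr2, first CArG box: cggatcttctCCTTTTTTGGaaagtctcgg
Egr2, second CArG box: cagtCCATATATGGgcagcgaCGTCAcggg

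The second stretch also holds a TGACG half-site on the opposite strand. Both boxes began 72 bases before an annotated start, counted to 67537566 for the first and to 67537869 for the second. For comparison, 4 genes whose windows held no CArG box are shown with their own matches in capitals. They are Atf3 (chr1:191183334-191183393, minus strand), Jun (chr4:95052234-95052293, minus strand), Fosb (chr7:19310066-19310125, minus strand) and Fos (chr12:85473804-85473863, plus strand).
Atf3: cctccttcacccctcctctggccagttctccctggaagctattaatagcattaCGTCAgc
Jun: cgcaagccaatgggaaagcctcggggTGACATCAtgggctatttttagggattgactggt
Fosb: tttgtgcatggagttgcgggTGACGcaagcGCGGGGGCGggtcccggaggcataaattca
Fos: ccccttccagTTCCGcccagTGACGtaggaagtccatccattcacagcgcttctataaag

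The Atf3 half-site lies on the opposite strand and starts 7 bases before the annotated start, and the Jun site starts 45 bases before it. Half-sites were found in 5 of the 7 genes (Atf3, Egr2, Fos, Fosb and Junb) and in 23.0% of all genes with a window. TGACATCA was found in Jun and in 4.18% of all such genes, GCGGGGGCG in Fosb and Fosl2 and in 3.31%, CGGAA in Egr2, Fos, Fosl2 and Junb and in 32.7%, and TGANTCA in none of the 7 genes and in 8.97%. A match describes the letters of these windows and is not evidence of binding. A missing match says nothing about sequence outside the window or about a motif with a mismatch.

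Values are log2 RMA expression values as deposited. Within a line the arrays had a correlation of 0.995 to 0.997, between lines of 0.988 to 0.995 (Pearson's r over probe sets), and the median of an array lay between 6.35 and 6.45. RMA has no detection call, so a value near that median may hold much background. A gene is said to have risen or fallen where its adjusted p in limma (Benjamini-Hochberg over all probe sets, 1 fit of the 12 arrays) was at most 0.01. Of the 10 genes, 9 differed among the 4 lines in the F test of that fit, with adjusted p between 2.55e-07 (Egr2) and 0.00127 (Fosl2). Across all probe sets 27.7% did, and 46.9% of those with a mean of at least 6, which all 10 genes had. In these bulk cultures, fewer cells with a transcript and less transcript per cell cannot be told apart.

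**Figure D1:**
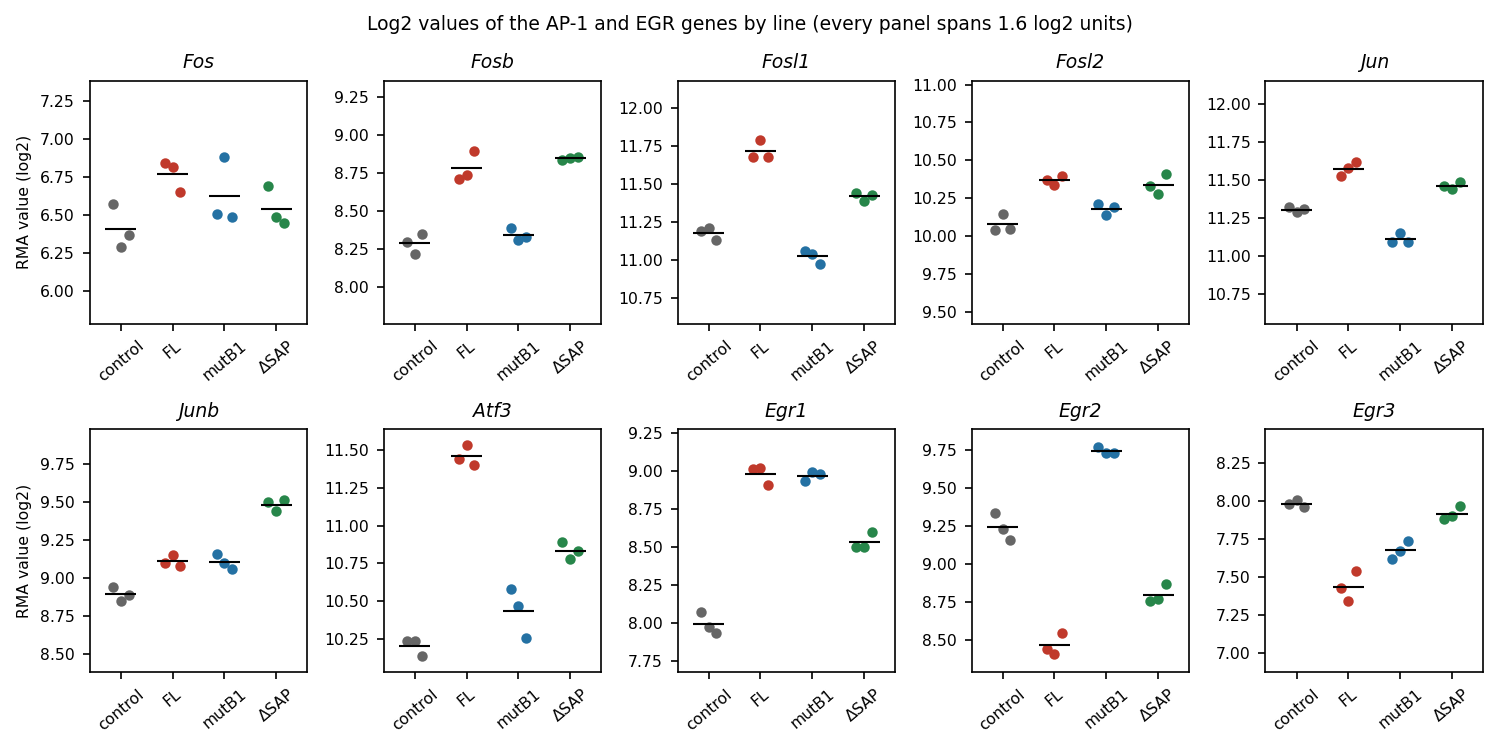
Log2 RMA values of the 10 genes in the control, FL, mutB1 and ΔSAP lines, 1 point per array and a bar at the line mean, with every panel spanning 1.6 log2 units on its own axis. Egr2 is lowest in FL and highest in mutB1, Atf3 and Fosl1 are highest in FL, Junb is highest in ΔSAP, and the Fos values of mutB1 overlap those of every other line.

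Fos, the founding member of its family, was close to the array median in every line. Its 3 arrays read 6.57, 6.29 and 6.37 in control, 6.84, 6.82 and 6.65 in FL, 6.51, 6.88 and 6.49 in mutB1, and 6.69, 6.49 and 6.45 in ΔSAP. The FL arrays lay above the control arrays by 0.08 at the nearest values, and every other pair of lines overlapped. Fos passed in none of the 6 comparisons, and its F test gave a limma adjusted p of 0.144. The largest difference, FL minus control, was 0.36 ± 0.12 (SE, 95% interval 0.09 to 0.62, limma adjusted p = 0.0479). The mutB1 arrays had the widest spread of the 4 lines for this gene, with a standard deviation (SD) of 0.22.

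Fosb, a Fos relative with an activating domain, fell into a low and a high pair of lines. The control arrays read 8.30, 8.22 and 8.35, the mutB1 arrays 8.39, 8.31 and 8.33, the FL arrays 8.71, 8.74 and 8.90, and the ΔSAP arrays 8.84, 8.85 and 8.86. Every FL and ΔSAP array lay above every control and mutB1 array. Within each pair of lines the values overlapped. FL exceeded mutB1 by 0.44 ± 0.05 (SE, 1.36-fold, limma adjusted p = 0.000157), whereas FL minus ΔSAP was -0.07, with a 95% interval of -0.19 to 0.06. Between mutB1 and control the difference was 0.05, with an interval of -0.07 to 0.17.

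Fosl1, also called Fra-1, is a Fos family member common in invasive carcinoma cells, and its values separated all 4 lines. In the control line its arrays read 11.19, 11.21 and 11.13, in FL 11.68, 11.79 and 11.68, in mutB1 11.06, 11.04 and 10.97, and in ΔSAP 11.44, 11.39 and 11.43. No pair of lines overlapped, with FL highest, then ΔSAP, control and mutB1. FL exceeded mutB1 by 0.70 ± 0.04 (1.62-fold, limma adjusted p = 1.42e-06) and ΔSAP by 0.30 ± 0.04 (1.23-fold, limma adjusted p = 0.00101). The call against ΔSAP ended when only those lines entered the fit (limma adjusted p = 0.0141). The lowest neighbours in that order, control and mutB1, differed by 0.15 without passing (limma adjusted p = 0.035). That difference passed with an intensity trend and robust prior (limma adjusted p = 0.00984).

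Fosl2, or Fra-2, moved least of the 9 genes that differed among the lines. The control line had a mean of 10.08 ± 0.06, FL 10.37 ± 0.03, mutB1 10.18 ± 0.03 and ΔSAP 10.34 ± 0.07 (SD, n = 3). FL and ΔSAP overlapped, and both lay above control and above mutB1. It rose in FL over control by 0.29 ± 0.05 (SE, limma adjusted p = 0.000728) and in ΔSAP over control by 0.26 ± 0.05 (limma adjusted p = 0.00201). The ΔSAP call ended without control replicate 1 (limma adjusted p = 0.011), without control replicate 3 (0.0106) and in a fit of those lines alone (0.0261). FL minus mutB1 was 0.19, just outside the threshold (limma adjusted p = 0.0106), and it passed under 6 of 20 alternatives.

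Jun, the partner that AP-1 pairs are built around, had the same order of line means as Fosl1 with a narrower range. Control arrays read 11.32, 11.29 and 11.31, FL arrays 11.53, 11.58 and 11.62, mutB1 arrays 11.09, 11.15 and 11.09, and ΔSAP arrays 11.46, 11.44 and 11.49. No pair of lines overlapped, although the nearest FL and ΔSAP arrays were 0.04 apart. FL exceeded mutB1 by 0.47 ± 0.04 (1.38-fold, limma adjusted p = 5.68e-06). The difference of 0.12 between FL and ΔSAP did not pass (limma adjusted p = 0.0489). Jun was the only one of the 10 genes that rose in FL over control (0.27 ± 0.04) and fell in mutB1 below it (-0.19 ± 0.04, limma adjusted p = 0.0032), apart from Egr2, which moved the opposite way in each. The mutB1 call for Jun was lost without control replicate 1 or 3 or mutB1 replicate 1 or 3, in a fit of those lines alone and after median centring (limma adjusted p from 0.014 to 0.0222).

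Junb, a Jun family member with weaker activating power, was highest in ΔSAP. The ΔSAP arrays read 9.50, 9.44 and 9.51, against 9.10, 9.15 and 9.08 in FL, 9.16, 9.10 and 9.06 in mutB1, and 8.94, 8.85 and 8.89 in control. The FL and mutB1 arrays overlapped, the control arrays lay below both, and the ΔSAP arrays lay above both. FL minus ΔSAP was -0.37 ± 0.04 (1.3-fold lower in FL, limma adjusted p = 0.000142), and FL minus mutB1 was 0.00, with a 95% interval of -0.09 to 0.09.

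Atf3 had its highest values in FL. Control arrays read 10.24, 10.24 and 10.14, FL arrays 11.44, 11.53 and 11.40, mutB1 arrays 10.58, 10.47 and 10.26, and ΔSAP arrays 10.89, 10.78 and 10.83. The lines did not overlap, but the lowest mutB1 array lay 0.02 above the highest control array. FL exceeded control by 1.25 ± 0.08 (2.38-fold, limma adjusted p = 7.14e-07), mutB1 by 1.02 ± 0.08 (2.03-fold, limma adjusted p = 3.99e-06) and ΔSAP by 0.62 ± 0.08 (1.54-fold, limma adjusted p = 0.000266). The mutB1 and control lines differed by 0.23 without passing (limma adjusted p = 0.0613), a difference that passed without mutB1 replicate 3 (0.32, limma adjusted p = 0.00633).

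Egr1, the best known of the Egr factors, was lowest in control and raised in every construct line. Its arrays read 8.07, 7.97 and 7.93 in control, 9.01, 9.02 and 8.91 in FL, 8.93, 8.99 and 8.98 in mutB1, and 8.50, 8.50 and 8.60 in ΔSAP. FL and mutB1 overlapped, ΔSAP lay below both, and control lay below ΔSAP. Over control the rise was 0.99 ± 0.05 in FL (1.99-fold, limma adjusted p = 1.87e-07), 0.98 ± 0.05 in mutB1 (1.97-fold, limma adjusted p = 2.89e-07) and 0.54 ± 0.05 in ΔSAP (1.46-fold, limma adjusted p = 2.28e-05). FL minus mutB1 was 0.01, with a 95% interval of -0.10 to 0.12, and FL exceeded ΔSAP by 0.45 ± 0.05 (limma adjusted p = 0.000152).

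Egr2, also called Krox20, was the only gene of the 10 to pass in all 6 comparisons. Its arrays read 9.34, 9.23 and 9.16 in control, 8.44, 8.41 and 8.55 in FL, 9.77, 9.73 and 9.73 in mutB1, and 8.76, 8.77 and 8.87 in ΔSAP. All 4 lines were separate, with mutB1 highest, then control, ΔSAP and FL. This is the gene whose windows hold the printed CArG boxes, and a link between the boxes and these values was not tested. FL was below mutB1 by 2.42-fold (-1.27 ± 0.06, limma adjusted p = 1.22e-07), below control by 1.71-fold (-0.77 ± 0.06, limma adjusted p = 3.26e-06) and below ΔSAP by 1.26-fold (-0.33 ± 0.06, limma adjusted p = 0.00238). The call against ΔSAP ended without FL replicate 1 (limma adjusted p = 0.0124), without FL replicate 2 (0.0125), without ΔSAP replicate 3 (0.0114) and in a fit of those lines alone (0.0172).

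Egr3, a close relative of Egr2, was also lowest in FL, but its highest values were in control. The arrays read 7.98, 8.01 and 7.96 in control, 7.43, 7.34 and 7.54 in FL, 7.62, 7.67 and 7.74 in mutB1, and 7.88, 7.90 and 7.97 in ΔSAP. Only control and ΔSAP overlapped. FL minus control was -0.55 ± 0.06 (1.46-fold lower, limma adjusted p = 3.07e-05) and FL minus ΔSAP -0.48 ± 0.06 (1.40-fold lower, limma adjusted p = 0.000192). FL minus mutB1 was -0.24 ± 0.06, and its call (limma adjusted p = 0.0086) was lost when any array except FL replicate 3 was left out, with adjusted p from 0.0109 to 0.038, and in a fit of those lines alone (0.0472).

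The comparison of FL with mutB1, named in the series design text, sets the line of the unaltered form against that of the B1-altered form. Of the 10 genes, 4 rose in FL (Atf3, Fosl1, Jun and Fosb, from 0.44 to 1.02) and 2 fell (Egr2 and Egr3). In limma 17.8% of all probe sets passed in this comparison (8.82% higher, 9.00% lower), and 29.9% of those with a mean of at least 6. The remaining 4, Fos, Fosl2, Junb and Egr1, did not pass. The median difference of the 10 genes was 0.17, against 0.00 over all probe sets, and the median absolute difference 0.34, against 0.12. Atf3 and Egr2 also met the design text's filters of a 2-fold change and a mean of at least 4, which 1.60% of probe sets did. The Atf3 difference ran from 0.93 to 1.09 over the 20 alternatives, so its 2-fold change did not hold under all of them. For Mkl1 RNA itself FL minus mutB1 was 0.79 ± 0.06 (limma adjusted p = 2.79e-06), and its part in these differences was not tested.

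The comparison of FL with ΔSAP, also named in the design text, sets the line of the unaltered form against that of the SAP-deleted form. Here 3 of the 10 genes rose in FL (Atf3, Egr1 and Fosl1, from 0.30 to 0.62) and 3 fell (Egr3, Junb and Egr2, from -0.48 to -0.33), whereas 11.4% of all probe sets passed in limma (5.73% higher, 5.70% lower), and 19.8% of those with a mean of at least 6. Fos, Fosb, Fosl2 and Jun did not pass. The median difference was 0.07, against 0.03 over all probe sets. None of the 10 met the design text's filters, which 0.503% of probe sets did. Both comparisons share the FL arrays, so their values stand side by side and are not independent.

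**Figure D2:**
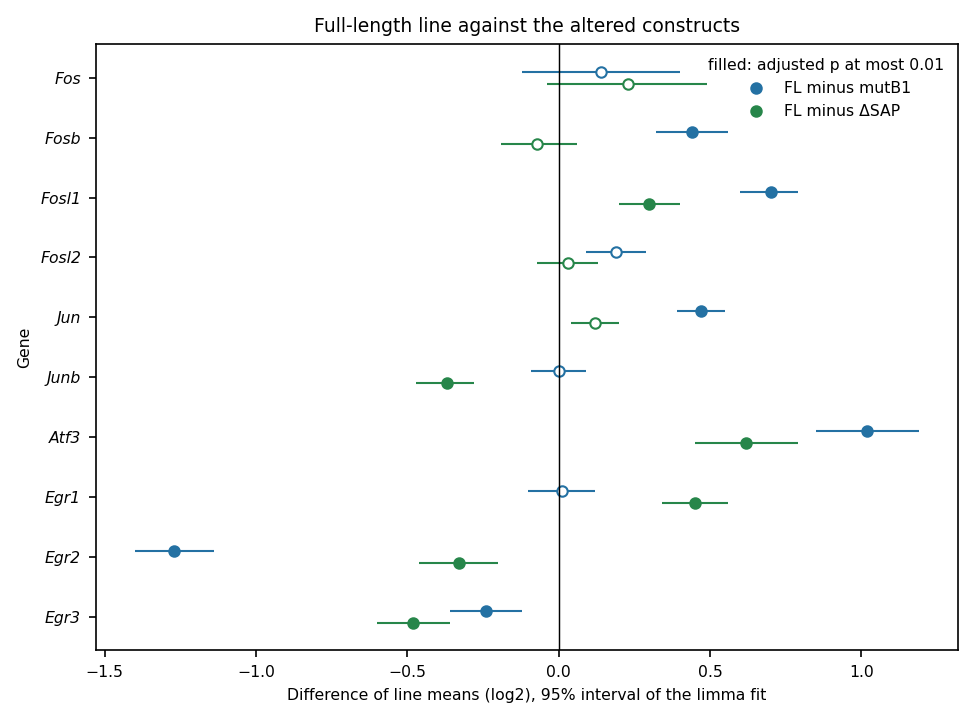
Differences of line means on the log2 scale for the 10 genes, FL minus mutB1 (blue) and FL minus ΔSAP (green), with the 95% interval of the limma fit and filled points where the adjusted p was at most 0.01. Egr2 lies at -1.27 and Atf3 at 1.02 against mutB1, and Junb and Egr1 lie at zero against mutB1 but at -0.37 and 0.45 against ΔSAP.

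Whether the altered lines differ from each other is answered by ΔSAP against mutB1, which uses no FL array. Of the 10 genes 6 were higher in ΔSAP (Fosb, Fosl1, Atf3, Junb, Jun and Egr3, from 0.24 to 0.51) and 2 lower (Egr2 at -0.94 ± 0.06 and Egr1 at -0.43 ± 0.05), with limma adjusted p between 1.17e-06 and 0.00939. Over all probe sets 15.1% passed in limma, 7.07% higher and 8.00% lower in ΔSAP, and 24.9% at a mean of at least 6. None of the 10 met the design text's filters here, which 1.42% of probe sets did. The Egr3 call was lost when any array except FL replicate 2 or 3 was left out (limma adjusted p from 0.0125 to 0.0397), and under 6 other alternatives, from 0.0104 with the replicate numbers as a block to 0.0268 in a fit of those lines alone. The Atf3 call was lost without ΔSAP replicate 1 (limma adjusted p = 0.014), without ΔSAP replicate 3 (0.0122) and in a fit of those lines alone (0.0295). For Mkl1 RNA, ΔSAP minus mutB1 was 0.63 ± 0.06 (limma adjusted p = 1.73e-05), and its part was not tested.

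Against the control line, 9 of the 10 genes differed in FL, with 7 higher (from 0.22 in Junb to 1.25 in Atf3) and Egr2 and Egr3 lower. Over all probe sets 20.0% passed in limma (9.61% higher, 10.4% lower, and 34.3% in either direction at a mean of at least 6). In ΔSAP 7 genes differed, with 6 higher (Atf3, Junb, Fosb, Egr1, Fosl2 and Fosl1, from 0.24 to 0.63) and Egr2 lower (-0.44 ± 0.06). The share of all probe sets was 14.8% in limma (6.96% higher, 7.83% lower, 25.3% at a mean of at least 6). In mutB1 5 genes differed, with Egr1, Egr2 (0.50 ± 0.06) and Junb (0.21 ± 0.04) higher and Egr3 (-0.31 ± 0.06) and Jun lower. The share there was 12.7% in limma (5.83% higher, 6.89% lower, 22.0% at a mean of at least 6). Only Atf3 in FL met the design text's filters, which 1.83% of probe sets met in FL, 1.34% in ΔSAP and 1.21% in mutB1. That mutB1 count was 3 without control replicate 1, 2 or 3 or without mutB1 replicate 2, and 2 without mutB1 replicate 1. The Junb call in mutB1 was lost without control replicate 2 or 3 or mutB1 replicate 1 or 2, and the Egr3 call without control replicate 1 or 2 or mutB1 replicate 1 or 2. Besides these and the calls of Jun in mutB1 and Fosl2 in ΔSAP described above, calls lost without 1 array were Junb in FL (without control replicate 2 or 3 or FL replicate 2) and Fosl1 in ΔSAP (without control replicate 3 or ΔSAP replicate 1 or 3), at limma adjusted p from 0.0101 to 0.0129. The 3 comparisons share the control arrays. Of the 10 genes, Egr1 and Junb were higher than control in all 3 construct lines. Egr2 was lower than control in FL and ΔSAP and higher in mutB1. Jun was higher in FL and lower in mutB1 but did not pass in ΔSAP (0.16, limma adjusted p = 0.0105), where it passed after further quantile normalization (0.00713), with an intensity trend and robust prior (0.00122) and among probe sets of mean at least 6 (0.00265).

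**Figure D3:**
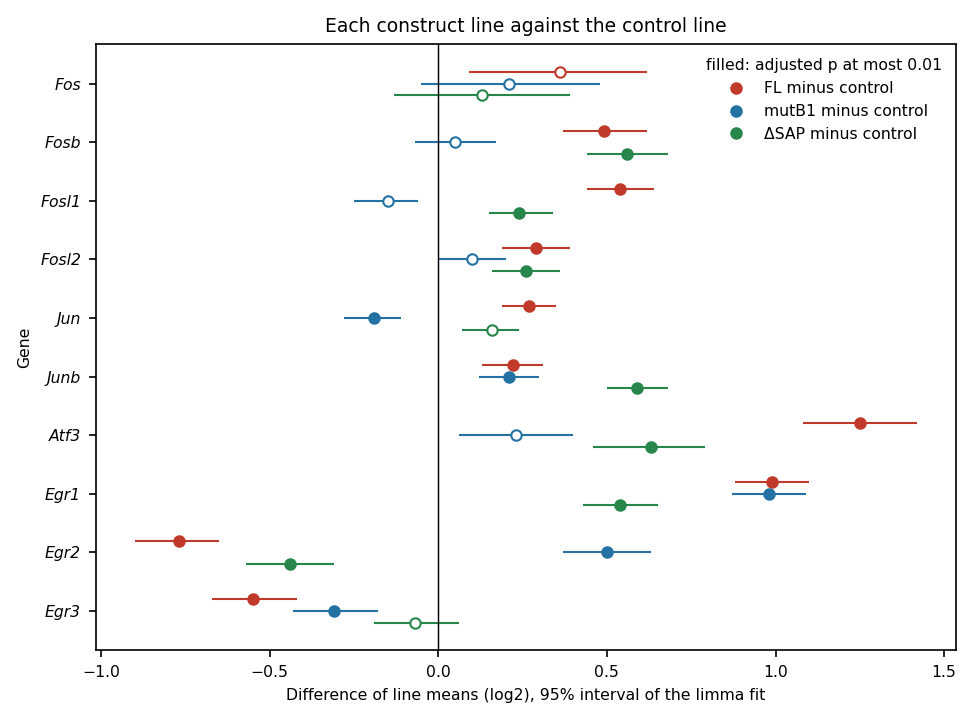
Differences from the control line on the log2 scale for the 10 genes in FL (red), mutB1 (blue) and ΔSAP (green), with the 95% interval of the limma fit and filled points where the adjusted p was at most 0.01. Egr1 is near 1 in FL and mutB1, Egr2 lies at -0.77 in FL and 0.50 in mutB1, and Junb is largest in ΔSAP at 0.59.

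The related gene lists are read against the share of probe sets called in limma, 17.8% in FL against mutB1 and 11.4% in FL against ΔSAP, or 29.9% and 19.8% at a mean of at least 6. Of Srf and its 6 measured cofactors, 1 rose in FL against mutB1 (Mkl1 itself) and 1 fell against ΔSAP (Elk3). Srf had a line mean of 9.98 in FL and 9.85 in mutB1 (difference 0.13, limma adjusted p = 0.0984) and did not pass against ΔSAP (0.03, limma adjusted p = 0.771). Of the ternary complex factors, Elk3 was lower in FL than in ΔSAP by 0.33 on the log2 scale (-0.33 ± 0.04, limma adjusted p = 0.000137), and Elk1 and Elk4 did not pass in either main comparison (-0.09 and -0.17 against mutB1, -0.14 and -0.18 against ΔSAP). Mrtfb, at its brightest probe set, stood at 0.04 and -0.06 in those comparisons, and Myocd, at 4.93 in FL, was below the array median, with neither called. The control line had a Mkl1 mean of 9.27 ± 0.01, the FL line 12.08 ± 0.06, the mutB1 line 11.29 ± 0.11 and the ΔSAP line 11.92 ± 0.04 (SD, n = 3). The places of its probes relative to the altered parts were not checked, so these Mkl1 levels need not compare equally between constructs. In the MAP kinase cascade 9 genes were measured, and FL against mutB1 had 0 higher and 2 lower, a share between the 17.8% of all probe sets and the 29.9% at a mean of at least 6, namely the kinases Rps6ka5 (-0.79 ± 0.05) and Rps6ka3 (-0.23 ± 0.04, a call lost without FL or mutB1 replicate 1 or 2), and 3 rose and 2 fell against ΔSAP, led by Map2k4 (0.23 ± 0.04, lost without FL replicate 2 or 3 or ΔSAP replicate 1 or 2) and Rps6ka5 (-0.52 ± 0.05).

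Among the partners of AP-1, 3 of 12 rose and 1 fell in FL against mutB1, which is near the 29.9% of probe sets called at a mean of at least 6 and is no result about these genes as a group. Jdp2, a repressor that pairs with Jun proteins, rose by 0.63 ± 0.05 (limma adjusted p = 6.46e-06), Mafk by 0.55 ± 0.06 and Jund by 0.38 ± 0.06, and Atf2 fell by 0.23 on the log2 scale (-0.23 ± 0.03). Against ΔSAP 1 rose, again Jdp2 (0.50 ± 0.05), and 2 fell, Maff (-0.35 ± 0.05) and Atf7 (-0.35 ± 0.04), where 19.8% of probe sets were called at a mean of at least 6. Of the Egr relatives and corepressors, Nab2, an EGR corepressor that EGR factors themselves induce, read 11.09 to 11.16 in control, 10.50 to 10.58 in FL, 11.09 to 11.19 in mutB1 and 10.88 to 10.95 in ΔSAP. It was lower in FL than in mutB1 by 0.60 on the log2 scale (-0.60 ± 0.04, limma adjusted p = 2.33e-06) and than in ΔSAP by 0.39 (-0.39 ± 0.04, limma adjusted p = 0.000117). The Nab2 arrays of FL were below those of every other line, as were those of Egr2 and Egr3, while control and mutB1 overlapped for Nab2. Egr1 did not share this and was lowest in control, with line means of 8.98 in FL, 8.97 in mutB1, 8.53 in ΔSAP and 7.99 in control. A link between Nab2 and any Egr gene was not tested. Nab1 and Egr4 did not pass (-0.08 and -0.09 against mutB1, -0.08 and 0.02 against ΔSAP).

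Of 29 other immediate early genes, 13 were higher and 3 lower in FL against mutB1, where 8.82% of all probe sets were higher and 9.00% lower. Their median was 0.15, against 0.00 over all probe sets. The polo-like kinases Plk2 (1.39 ± 0.07) and Plk3 (0.79 ± 0.03) and Ier5 (0.75 ± 0.06) led the rises, and the orphan nuclear receptor Nr4a1 (-0.46 ± 0.05), Ier5l (-0.43 ± 0.04) and Phlda1 (-0.15 ± 0.03, lost without any 1 FL array or mutB1 replicate 1 or 3) fell. Against ΔSAP 7 of 29 were higher and 4 lower, where 5.73% of all probe sets were higher and 5.70% lower. Plk2 (0.74 ± 0.07), the small GTPase Gem (0.53 ± 0.05) and Csrnp1 (0.52 ± 0.05) were in the lead and Klf4 (-0.38 ± 0.06), Maff and Phlda1 (-0.28 ± 0.03) lowest. FL against mutB1 had 8 of 11 ERK feedback genes lower and 1 higher (9.00% and 8.82% of all probe sets), with a median of -0.30. The feedback inhibitors Spry1 (-1.27 ± 0.05), Spry4 (-0.54 ± 0.05) and Spred1 (-0.46 ± 0.04) fell most, and the ERK phosphatase Dusp5 rose by 1.19 ± 0.07. Against ΔSAP 2 of the 11 rose (Dusp5 at 0.52 ± 0.07 and Etv4 at 0.22 ± 0.05, a call lost without any 1 array except mutB1 replicate 1 or 2) and 1 fell (Spry1 at -0.54 ± 0.05). Over all probe sets 11.4% passed there in limma, and 19.8% of those with a mean of at least 6. Among 8 lists of related genes, a CArG box was found in the promoter windows of Srf, Zfp36 and Dusp5. These were 1 of 6 Srf and cofactor genes with a window, 1 of 22 other immediate early genes and 1 of 8 ERK feedback genes, and the other lists had none. Of the 10 genes, 7 had a window and only Egr2 held a box, against 1.81% of all genes with a window.

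Among 12 measured AP-1 target genes, FL against mutB1 had 4 higher and 4 lower (8.82% and 9.00% of all probe sets), with a median of 0.09. The urokinase receptor Plaur (0.90 ± 0.05), the metalloprotease Mmp10 (0.88 ± 0.06) and the growth factor Hbegf (0.63 ± 0.04) were higher, and Mmp9 (-0.74 ± 0.04), Mmp3 (-0.38 ± 0.04) and Vegfa (-0.32 ± 0.04) lower. Against ΔSAP Mmp9 (0.65 ± 0.04) and Plaur (0.31 ± 0.05) were higher and Cd44 (-0.46 ± 0.04) lower, and the other 9 did not pass. These calls are near the 19.8% of probe sets called there at a mean of at least 6 and are no result about the list as a group. The list of the Atf4 stress response, the pathway that commonly induces Atf3, had 7 of 10 genes higher and 1 lower in FL against mutB1 (median 0.65) and 8 higher and 0 lower against ΔSAP (median 0.56). In limma 8.82% of all probe sets were higher in FL in the first comparison and 5.73% in the second. The stress factor Ddit3 rose by 1.56 ± 0.04 and 1.15 ± 0.04, Ppp1r15a by 1.25 ± 0.08 and 0.72 ± 0.08, and Sesn2 by 0.98 ± 0.05 and 0.84 ± 0.05 in these comparisons, and Gadd45a was lower against mutB1 (-1.01 ± 0.04). The lists were chosen with earlier results of these data known, and their counts are a description.

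**Figure D4:**
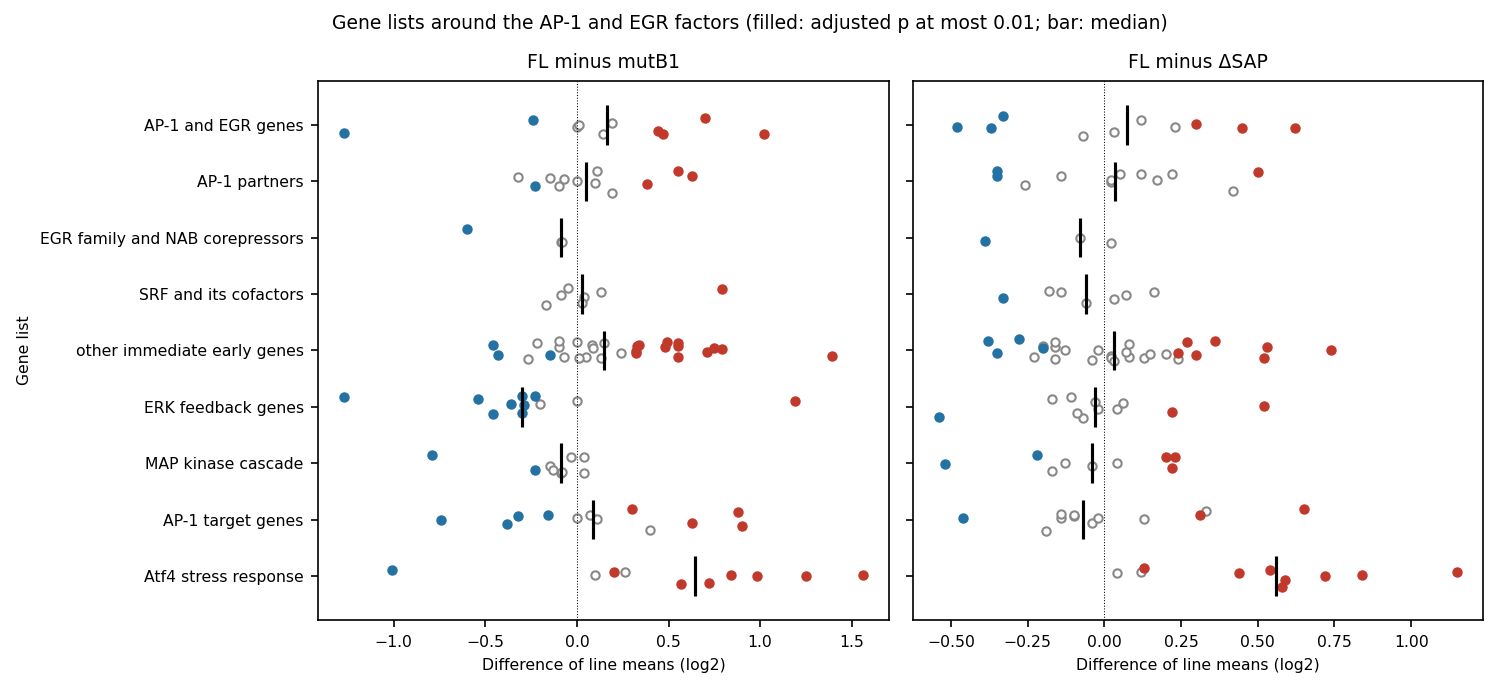
Differences of line means on the log2 scale for the 10 AP-1 and EGR genes and 8 related gene lists, FL minus mutB1 on the left and FL minus ΔSAP on the right. Each point is a gene, red where higher and blue where lower in FL at an adjusted p of at most 0.01 and open otherwise, the bar marks the list median and Maff stands in 2 lists. The Atf4 stress response medians are 0.65 and 0.56, and the ERK feedback median is -0.30 against mutB1.

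Likeness to other genes was measured for the 3 genes with the widest range of line means, as the root mean square difference over the 12 arrays after each gene's mean was subtracted. Closest to Egr2 were Shc4 (0.091), Nrarp (0.099) and Pdgfrl (0.101), against 0.482 for a gene that does not vary. Closest to Atf3 were Ifrd1 (0.066), Ppp1r15a (0.095) and Zic5 (0.108), against 0.480 for a flat gene. For Egr1 they were Lgals9 (0.059), Pml (0.070) and Parp12 (0.084), against 0.407. Lgals9 had a control mean of 11.71, against 12.67 for FL, 12.70 for mutB1 and 12.28 for ΔSAP. None of the 10 AP-1 and EGR genes was among these neighbours of another. All of these genes were measured on the same arrays, and with 4 lines many genes can share an order.

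**Figure D5:**
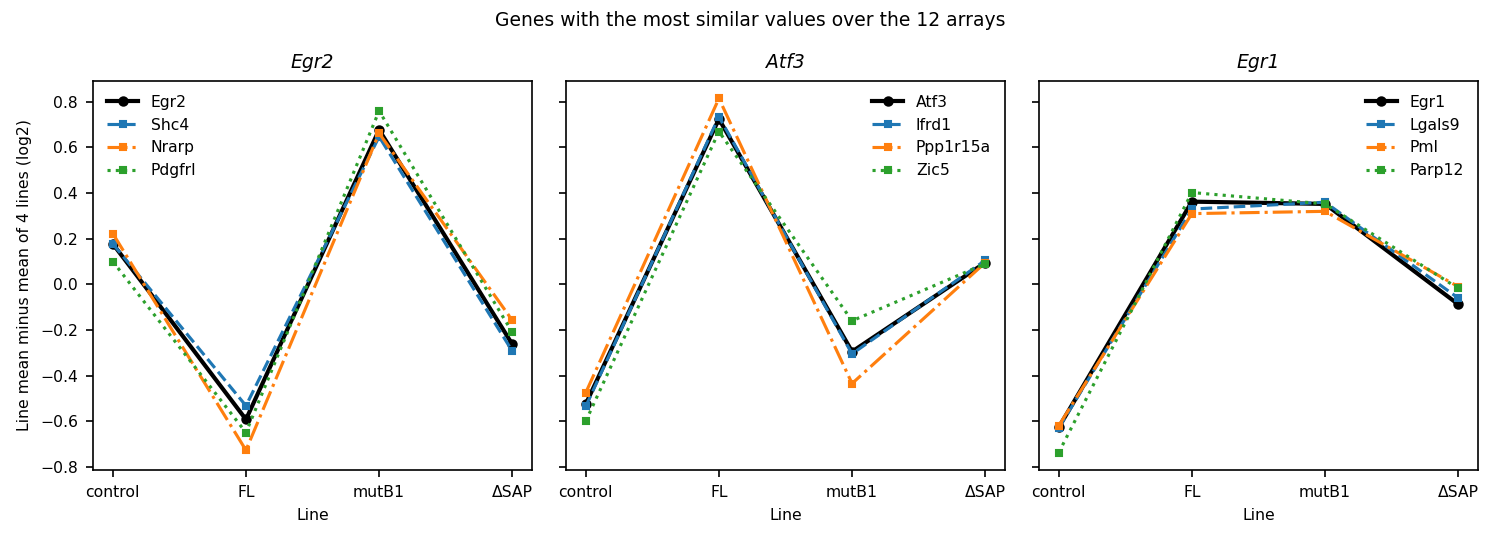
Line means minus the mean of the 4 lines, on the log2 scale, for Egr2, Atf3 and Egr1 (black) and the 3 genes nearest to each over the 12 arrays. Egr2 and its neighbours are lowest in FL and highest in mutB1, Atf3 and its neighbours are highest in FL, and Egr1 and its neighbours are lowest in control.

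The labelled cell type is a mammary epithelial carcinoma. The simple epithelial keratins Krt8 (12.92 to 13.20 over all arrays) and Krt18 (12.52 to 12.93) were bright in every line. As line means, Cdh1 ranged from 8.08 in mutB1 to 10.69 in ΔSAP, Epcam from 6.41 to 10.14 and Krt7 from 8.97 to 11.85 in the same lines. The basal keratins were not bright, with a mean over the 12 arrays of 6.43 for Krt14, near the array medians, and 5.26 for Krt5, below them. Of the fibroblast markers, Lum stayed at or below 3.67 and Dcn had a mean of 6.13 over the 12 arrays, while Col1a1 (7.08), Col1a2 (6.68), Col3a1 (6.99), Pdgfra (10.19) and Pdgfrb (7.35) had means above the array medians. The Pdgfrb line mean was 10.29 in mutB1 and 6.85 in control, but 6.33 in FL and 5.92 in ΔSAP, both below the array medians. Of the leukocyte markers, Ptprc stayed at or below 4.73, Itgam, Adgre1 and Lyz2 at or below 5.10, Cd3e had a mean of 6.40 and Cd68 of 9.09. The 4 endothelial markers stayed at or below 5.89 on every array. Of 7 epithelial markers, 4 were higher and 1 lower in FL against mutB1, and 0 higher and 5 lower against ΔSAP. Over all probe sets 17.8% and 11.4% passed in limma in these comparisons, and 29.9% and 19.8% of those with a mean of at least 6. Their summed level on the log2 scale was 14.33 to 14.37 in the control arrays, 14.14 to 14.18 in FL, 13.96 to 14.03 in mutB1 and 14.44 to 14.46 in ΔSAP. Some markers of other cell types passed too, and their counts are to be read against the same shares. In FL against mutB1, 2 of 7 fibroblast markers fell (Pdgfrb at -3.96 ± 0.10 and Pdgfra at -1.49 ± 0.06), 1 of 6 leukocyte markers rose (Cd68 at 1.05 ± 0.10) and 0 of 4 endothelial markers passed in limma. Against ΔSAP 1 fibroblast marker was higher and 1 lower, and 0 leukocyte and 0 endothelial markers passed. The log2 of the summed fibroblast markers was 11.10 to 11.25 in control, 10.16 to 10.31 in FL, 11.75 to 11.84 for mutB1 and 10.33 to 10.42 for ΔSAP. For the leukocyte markers it was 9.26 to 9.51, 9.85 to 9.90, 9.02 to 9.25 and 9.62 to 9.70 in the same order, and for the endothelial markers between 6.97 and 7.23 in every line. The part of these markers in the AP-1 and EGR differences was not tested.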

How the data were processed

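The values analysed are log2 expression values per probe set, which the authors made with RMA in the affy package of Bioconductor 2.4 per the series design text, with R 2.10.0 per the submitters' processing notes, and deposited as 1 table of 12 arrays. No source used here states the probe set definition, the scan dates or the genome build. Precision is limited by the number of arrays, 3 per line.

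Of 34760 probe sets, 21640 have exactly 1 symbol in GEO's platform annotation of the array, 1321 several and 11799 none. Symbols were updated through Entrez IDs with a RefSeq table of GRCm38.p6 (21553 matched), and a gene with several probe sets was represented by the brightest. The test was limma's, version 3.58.1 under R 4.3.3 (lmFit, then eBayes, on all 34760 probe sets and 4 line means, Benjamini-Hochberg adjustment). The fit was tested on simulated data. A call is an adjusted p of at most 0.01 with no minimum fold, and the filters of the design text (2-fold, mean log2 of at least 4) are given as a second count. Changes are the first line minus the second with the standard error (SE). The 95% intervals come from the same fit and are not adjusted.

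All 10 genes are named. From each related list at most the 3 largest called rises and falls in either main comparison are named, except that the Srf cofactors and the Egr relatives are all named, and the 3 genes nearest to each of the 3 widest-ranging members are named by root mean square difference. The genes and lists were chosen with earlier results of these data known. Some genes of the related lists were not analysed here. Promoter sequences are RefSeq's (GRCm38.p6). The alternatives left out each array, used the replicate number as a block, fitted only the lines compared, centred or quantile normalized the arrays again, changed the variance prior, weighted arrays, tested only probe sets of mean log2 of at least 6, or averaged a gene's probe sets.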

Additional observations from a re-analysis of the deposited data

How the results depend on the processing

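Across 20 alternatives, none of the called differences of the 10 genes changed direction, and 30 of the 41 calls held under every one of them. The other 11 were lost under at least 1 alternative, and 5 differences that had not passed did so under at least 1. The number of genes called stayed within 1.5 times under every alternative for 5 of the 6 comparisons and stayed at 9 in the F test. With arrays left out in turn it ran from 5 to 6 for FL against mutB1 (6 in the fit of all arrays), from 5 to 6 for FL against ΔSAP (6), from 8 to 9 for FL against control (9), from 5 to 7 for ΔSAP against control (7) and from 6 to 8 for ΔSAP against mutB1 (8). Under the 8 other alternatives it ran from 5 to 7, 4 to 7, 8 to 9, 5 to 8 and 6 to 8 in the same order. The exception was mutB1 against control, where 5 genes were called, 2 to 5 with arrays left out in turn and 3 to 6 under the 8 other alternatives. The count was 3 when only those lines were fitted and 3 after median centring. Fosl1 was gained there with an intensity trend and robust prior (limma adjusted p = 0.00984). The smaller fit has fewer arrays, and the cause of the other changes was not tested. Same-numbered arrays of different lines did not deviate together, since only 2 of 18 pairs had a correlation of deviations over 0.1 (range -0.20 to 0.17), so the numbers were not taken as a pairing. With the replicate number as a block the counts were 6, 6, 9, 5 and 7 in the order above with mutB1 against control before ΔSAP against control, and 7 in place of 8 for ΔSAP against mutB1, where Egr3 was lost. For the 10 genes, averaging probe sets left the differences as they were, since each has a single probe set. The Fos values lie near the array median, so signal over background limits what its comparisons can show.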
